A study of Mus musculus with 6 samples.

Results

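The semaphorins, plexins and neuropilins are a family of axon guidance ligands and their receptors, described here in sorted cells of the mouse cerebral cortex. Members were found by gene symbol in the count table: all 30 listed symbols (19 semaphorins, 11 receptors) were present among 24041 genes. Of these, 29 passed the filter on low counts and were tested with 14451 genes in all. Plxnb3, the remaining member, had 3, 3 and 0 counts in mutant replicates 1, 2 and 3 and 0 counts in each wild-type library, at or below a floor of 3 counts per library.

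The cells came from cerebral cortices into which plasmids had been driven by electroporation, and were sorted for the green fluorescent protein (GFP) that marks plasmid uptake. The 3 mutant PRPF6 libraries were given GFP with mutant PRPF6, and the 3 wild-type PRPF6 libraries GFP with the wild-type form. PRPF6 is a spliceosome protein. The labels do not give the mutation, the plasmid's species or promoter, or the strain and age of the mice. Every library carried a PRPF6 plasmid, so a difference cannot be assigned to the mutant or to the wild-type protein. Counts of Prpf6 differed by −0.07 ± 0.17 (log2, SE), and whether they include plasmid transcripts was not tested.

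Semaphorins share an extracellular sema domain. Class 3 members are secreted and mostly bind neuropilins, which hold plexin A receptors in a shared complex, whereas the membrane-bound classes mostly bind plexins directly. Plexins act on small GTPases and thereby on the cytoskeleton. In the developing cortex the family is known for guiding axons, orienting dendrites and steering migrating neurons and interneurons.

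Library composition differed within groups. The summed level of 7 radial glia markers, genes of cortical stem cells, was 3864, 1987 and 3208 CPM (counts scaled to a common depth) in mutant replicates 1, 2 and 3, against 1704, 2130 and 1550 CPM in wild-type replicates 1, 2 and 3. For 8 neuron markers the sums were 1338, 2771 and 1920 CPM in mutant replicates 1, 2 and 3, against 3851, 2654 and 3093 CPM in wild-type replicates 1, 2 and 3. The radial glia order between mutant libraries rested on Fabp7: without it the other 6 markers summed to 2329, 1526 and 2630 CPM in mutant replicates 1, 2 and 3, against 1239, 1679 and 1208 CPM in wild-type replicates 1, 2 and 3. Slc1a3, Fabp7 and Vim were highest in mutant replicate 1, and Pax6, Sox2, Hes5 and Nes in mutant replicate 3. Of the 8 neuron markers 4 were lowest in mutant replicate 1 (Neurod6, Neurod2, Bcl11b and Tbr1) and 3 in mutant replicate 3, while 6 were highest in wild-type replicate 1 and Tubb3 was lowest there. Fitted log2 differences (mutant minus wild-type) were above 0 for all 7 radial glia markers and below 0 for all 8 neuron markers, and none passed the test. Red blood cell and meningeal fibroblast markers summed to 13380 and 1629 CPM in wild-type replicate 3, against at most 2458 and 161 CPM in the other libraries. Endothelial markers summed to 29.4 CPM in mutant replicate 2 and 79.6 CPM in wild-type replicate 3, against at most 1.72 CPM elsewhere, and Cdh5, Flt1 and Emcn were at 0 in at least 1 library. Microglia markers summed to 17.3, 459 and 17.0 CPM in mutant replicates 1, 2 and 3, against 55.1, 177 and 115 CPM in wild-type replicates 1, 2 and 3. Interneuron markers summed to 727, 384 and 290 CPM in mutant replicates 1, 2 and 3, against 140, 395 and 845 CPM in wild-type replicates 1, 2 and 3. In these bulk libraries fewer cells of a type and less RNA per cell cannot be told apart.

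No member passed edgeR's quasi-likelihood test, and no gene among the 14451 did (0% called, with 489 genes at an unadjusted p under 0.05). limma-voom also called 0 genes (551 at an unadjusted p under 0.05), and DESeq2 called 6 (0.0415%, with 642 at an unadjusted p under 0.05). DESeq2 left 8695 genes without an adjusted p, so fewer genes could be called than the 14451 in that share. Sema5b and Sema6a had an unadjusted p under 0.05, both with higher fitted levels in mutant PRPF6 cells, and the other 27 members had unadjusted edgeR p-values from 0.0815 to 0.999. That is 2 of 29 members (6.90%), against 3.38% of all tested genes, of which 2.18% were higher and 1.20% lower. In 2 members the groups did not overlap: Sema5b was above in each mutant library and Sema4g below. This is 6.90% of the members, against 9.14% of all tested genes (4.62% above, 4.52% below). Fitted differences were above 0 in 12 members (41.4%) and below 0 in 17, against 49.8% above 0 over all genes. The members' median log2 difference was −0.20, and over all genes it was −0.0013. The members' sign split changed with single libraries: without mutant replicate 1 there were 15 above and 14 below 0 and the median was 0.037.

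**Figure D1:**
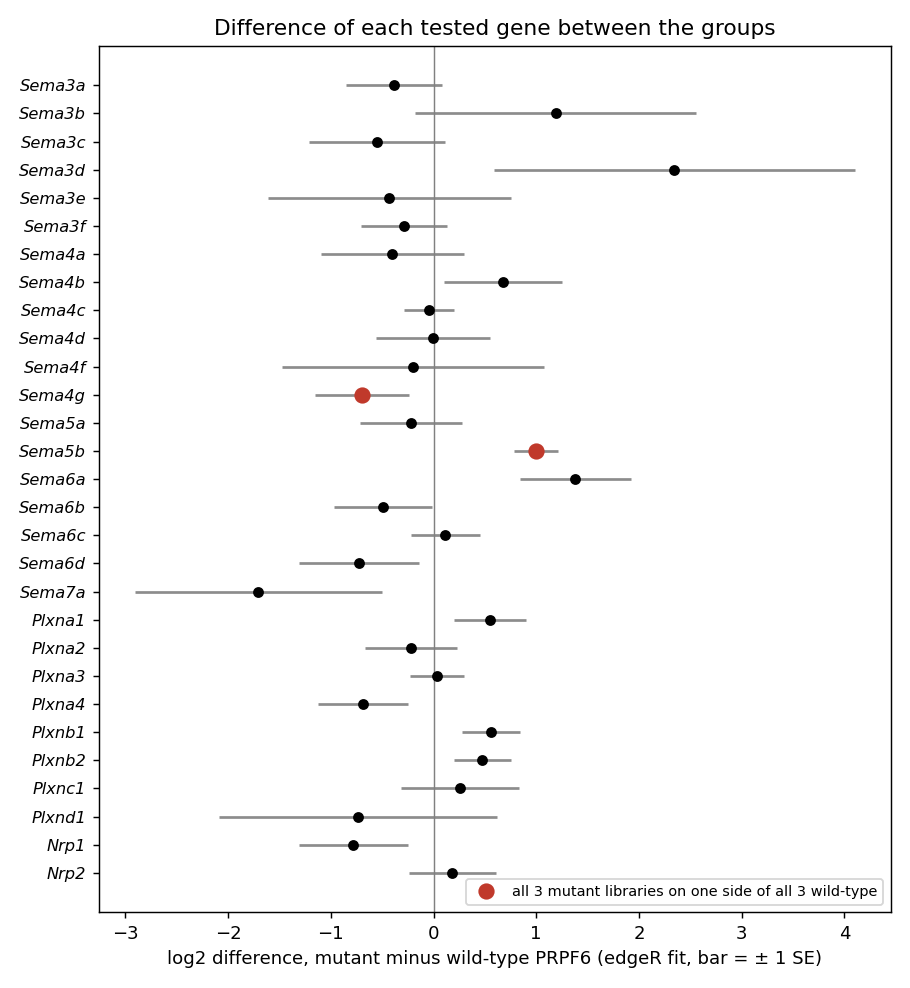
Log2 difference (mutant minus wild-type PRPF6, edgeR fit) of the 29 tested genes, with bars of 1 SE; red points mark Sema5b and Sema4g, in which the groups did not overlap. Sema5b has a bar well clear of 0, while the widest bars belong to genes of low level such as Sema3d (1.76) and Sema3b (1.37).

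Levels between genes were compared as CPM per kilobase of all annotated exons joined, averaged over the 6 libraries. On this scale the most abundant members were Plxnb2 (32.9 CPM per kb), Nrp1 (26.8), Sema5b (25.0), Sema6c (22.8) and Plxna2 (20.0). Plxnb1, Sema4c and Plxna3 followed at 16.7, 16.7 and 16.6 CPM per kb, then Plxna1 (15.0), Plxna4 (14.2) and Sema6d (10.2). The ranges of neighbours in this order overlapped: Plxnb2 ranged from 22.9 to 51.6 CPM per kb between libraries and Nrp1 from 8.98 to 59.9. Sema3d, Sema3e and Sema3b were the lowest tested members, at 0.151, 0.312 and 0.512 CPM per kb. Joined exon length counts exons that may not be used in these cells, which lowers the per-kb level of genes with long models such as Sema5a (18.7 kb).

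**Figure D2:**
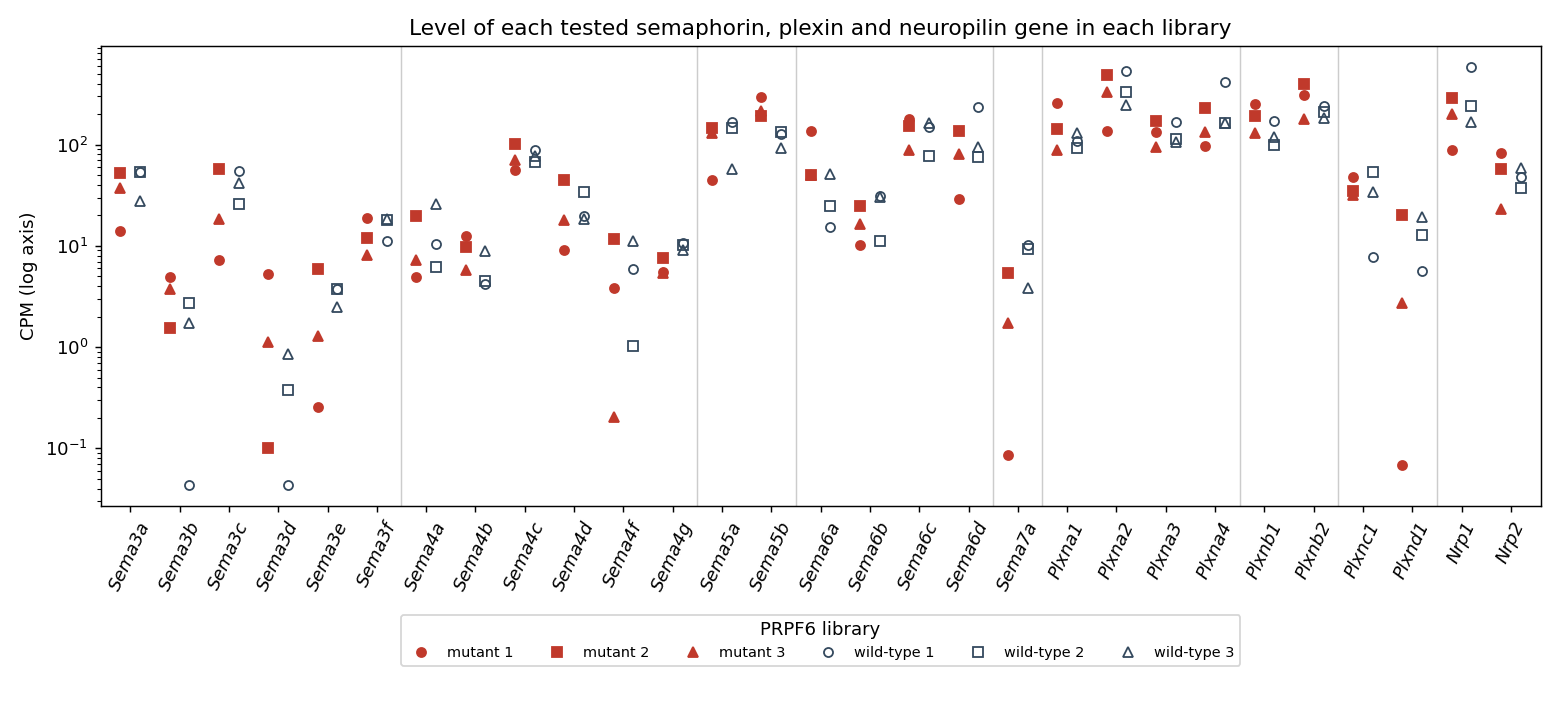
CPM on a log axis of each tested gene, with 1 point per library, mutant PRPF6 libraries filled and left, wild-type PRPF6 libraries open and right, and lines between classes. Sema5b is the member whose 3 mutant points (193 to 298 CPM) all sit above its 3 wild-type points (93.4 to 134 CPM).

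Among the secreted class 3 ligands, 4 of 6 had lower fitted levels in mutant PRPF6 cells, none past the test, and the groups overlapped in all 6. Sema3a, the founding collapsin that signals through Nrp1, was at 14.0, 52.2 and 37.1 CPM in mutant replicates 1, 2 and 3, against 53.3, 53.8 and 27.8 CPM in wild-type replicates 1, 2 and 3. Sema3c, an attractive cue for cortical axons, was at 7.31, 57.9 and 18.3 CPM in mutant replicates, against 54.5, 26.0 and 41.4 CPM in wild-type replicates. For both genes mutant replicate 1 was the lowest of the 6 libraries, and the log2 differences were −0.39 ± 0.47 and −0.55 ± 0.66 (SE). Sema3f, the main ligand of Nrp2, lay between 8.19 and 18.8 CPM in mutant libraries and 11.2 and 18.3 CPM in wild-type libraries (−0.29 ± 0.42).

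The other class 3 ligands were scarce and uneven. Sema3e, which binds Plxnd1 without a neuropilin, ran from 0.258 to 5.86 CPM in mutant and from 2.47 to 3.78 CPM in wild-type libraries (−0.43 ± 1.18, SE). Sema3b reached 4.94 CPM in mutant and 2.71 CPM in wild-type libraries, with 2 counts in wild-type replicate 1 (1.19 ± 1.37, SE). Sema3d, with the largest fitted difference of the family (2.34 ± 1.76, SE), was at 5.30, 0.100 and 1.12 CPM in mutant replicates 1, 2 and 3, against 0.043, 0.377 and 0.858 CPM in wild-type replicates 1, 2 and 3. The estimate was 0.51 without mutant replicate 1. Sema3g, the class 3 gene outside the listed members, stayed at or below 2.11 CPM in mutant and 0.180 CPM in wild-type libraries.

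Class 4 transmembrane ligands, several of which bind plexin B receptors, gave fitted differences below 0 in 5 of 6 genes. Sema4c, a Plxnb2 ligand and the most abundant of the class, was at 55.6, 100.5 and 70.0 CPM in mutant replicates 1, 2 and 3, against 89.1, 67.0 and 77.1 CPM in wild-type replicates 1, 2 and 3 (−0.05 ± 0.25, SE). Sema4d, the ligand of Plxnb1, was at 9.19, 44.8 and 18.0 CPM in mutant and 19.7, 33.9 and 18.5 CPM in wild-type replicates. Its group means were equal to 3 digits, 24.0 ± 18.6 CPM in mutant and 24.0 ± 8.56 CPM in wild-type libraries (SD, n = 3 each). The log2 difference was −0.0009 ± 0.55 (SE), and it lay between −0.82 and 0.39 with single libraries left out. Mutant replicate 2 and wild-type replicate 2, the highest libraries for Sema4d, also had the highest microglia sums, whose part in it was not tested.

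Sema4g was the member with non-overlapping groups on the lower side. It was at 5.58, 7.57 and 5.43 CPM in mutant replicates 1, 2 and 3, against 10.8, 10.1 and 9.20 CPM in wild-type replicates 1, 2 and 3. The highest mutant library was below the lowest wild-type library, yet the difference of −0.70 ± 0.46 (SE) had an unadjusted edgeR p of 0.165. Sema4g was a low-level gene with 238 to 377 counts in mutant and 461 to 618 counts in wild-type libraries. Its estimate stayed between −0.87 and −0.61 whichever library was left out.

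Sema4a, Sema4b and Sema4f varied more between libraries than between groups. Sema4a, a ligand also used by immune cells, was highest in wild-type replicate 3 (25.8 CPM) and mutant replicate 2 (19.9 CPM), against 4.91 to 10.4 CPM elsewhere. Those libraries also had the highest endothelial marker sums, and mutant replicate 2 the highest microglia sum. The part of those cells in the Sema4a level (−0.40 ± 0.69, SE) was not tested. Sema4b lay between 5.72 and 12.7 CPM in mutant and 4.19 and 8.82 CPM in wild-type libraries (0.68 ± 0.57, SE), from counts that RSEM partly shared with other genes in 2 libraries. Sema4f ranged from 0.205 to 11.7 CPM in mutant and from 1.03 to 11.1 CPM in wild-type libraries (−0.20 ± 1.28, SE).

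Class 5 held the clearest difference of the family. Sema5b, a transmembrane ligand with thrombospondin repeats that in mouse retina acts with Sema5a through Plxna1 and Plxna3, was at 298, 193 and 215 CPM in mutant replicates 1, 2 and 3, against 126, 134 and 93.4 CPM in wild-type replicates 1, 2 and 3. The lowest mutant library was above the highest wild-type library, with means of 235 ± 55.5 CPM and 118 ± 21.5 CPM (SD, n = 3 each). The log2 difference was 1.00 ± 0.22 (SE), with an unadjusted edgeR quasi-likelihood p of 0.00174 and an adjusted p of 1.00. DESeq2 gave 1.00 ± 0.24 (SE) and an adjusted p of 0.0381, which makes Sema5b 1 of 6 genes it called. The others were Efhd2, Fgfr3, Pea15a, Sox9 and Vcam1. After the low-count filter, DESeq2's adjustment covered fewer genes than edgeR's. Without the filter DESeq2 called 12 genes, Sema5b among them, and left 2933 of 17679 genes without an adjusted p. Over all alternatives adjusted p for Sema5b ran from 0.0381 to 1.00, and DESeq2 was the tool below 0.05. With each library left out in turn the estimate lay between 0.79 and 1.12, and it was 0.65 without both mutant replicate 1 and wild-type replicate 3.

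The order of the libraries for Sema5b matched that of the radial glia markers in part. Mutant replicate 1 was highest and wild-type replicate 3 lowest for both Sema5b and the 7 markers summed, but without Fabp7 the markers' sum was highest in mutant replicate 3. Mutant replicate 2 had a radial glia sum of 1987 CPM, below the 2130 CPM of wild-type replicate 2, whereas its Sema5b level of 193 CPM was above the 134 CPM there. Sox2, 1 of the 7 markers, had non-overlapping groups as Sema5b did. It was at 206, 177 and 234 CPM in mutant replicates 1, 2 and 3, against 142, 162 and 118 CPM in wild-type replicates 1, 2 and 3. The groups overlapped in the other radial glia markers. Of the intermediate progenitor markers, Btg2 lay above in each mutant library, while Eomes and Neurog2 overlapped. Such an order, mutant above, held in 4.62% of all tested genes. The part of cell composition in the Sema5b difference was not tested. Its paralog Sema5a did not share the pattern, with 44.6, 146 and 130 CPM in mutant replicates 1, 2 and 3, against 168, 147 and 57.0 CPM in wild-type replicates 1, 2 and 3 (−0.22 ± 0.50, SE). The ratio of Sema5a to Sema5b counts was 0.149, 0.755 and 0.604 in mutant and 1.33, 1.10 and 0.611 in wild-type replicates 1, 2 and 3. The highest mutant ratio was above the lowest wild-type ratio.

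Promoter windows, from 250 bases before to 50 bases after an annotated transcript start, were taken from a supplied set based on RefSeq (GRCm38.p6). That set held 36 windows for 25 of the 30 members and lacked Plxna1, Plxna4, Sema3b, Sema3f and Sema6a. The windows of Sema5b and Sema4g, the members with non-overlapping groups, and of Nrp1, the receptor with the widest swing in CPM, are shown to let their base composition be compared. Sema5b lies on the plus strand (chr16:35541112-35541411), as do Sema4g (chr19:44989094-44989393) and Nrp1 (chr8:128358823-128359122). Capitals mark a CAGCTG E-box, a motif recognised by basic helix-loop-helix factors.
Sema5b: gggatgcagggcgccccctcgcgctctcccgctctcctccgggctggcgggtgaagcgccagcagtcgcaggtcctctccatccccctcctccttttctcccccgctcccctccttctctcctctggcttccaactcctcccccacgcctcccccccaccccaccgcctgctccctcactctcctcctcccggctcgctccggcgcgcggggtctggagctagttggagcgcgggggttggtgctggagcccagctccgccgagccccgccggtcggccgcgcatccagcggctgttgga
Sema4g: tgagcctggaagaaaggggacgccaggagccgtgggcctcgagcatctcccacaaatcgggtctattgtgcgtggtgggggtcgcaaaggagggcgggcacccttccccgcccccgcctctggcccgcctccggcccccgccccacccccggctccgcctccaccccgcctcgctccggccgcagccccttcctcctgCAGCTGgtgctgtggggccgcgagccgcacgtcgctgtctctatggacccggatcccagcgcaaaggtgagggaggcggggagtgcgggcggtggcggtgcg
Nrp1: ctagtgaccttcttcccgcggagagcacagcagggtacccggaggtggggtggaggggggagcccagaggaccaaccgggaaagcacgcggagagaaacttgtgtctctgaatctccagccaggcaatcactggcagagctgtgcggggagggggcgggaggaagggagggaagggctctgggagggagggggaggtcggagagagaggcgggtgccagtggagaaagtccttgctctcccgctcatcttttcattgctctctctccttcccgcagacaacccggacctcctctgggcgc
These windows hold 73.0%, 73.3% and 64.0% G or C, with 27, 30 and 14 CpG dinucleotides, against medians of 52.7% and 7 over 32851 windows of the same length. Members' windows had medians of 63.8% and 16.5. The palindrome CAGCTG occurred in 5 of 36 member windows (13.9%) and in 16.3% of all windows. A second E-box, CATCTG on either strand, was in 2 of 36 (5.56%), against 17.2% of all, and TGGGAA on either strand, the core of RBPJ motifs, in 7 of 36 (19.4%), against 25.6% of all. The matches are letters in a window and were not tested as sites.

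Class 6 transmembrane ligands split. Sema6a, a ligand of Plxna2 and Plxna4, was at 137, 50.6 and 50.0 CPM in mutant replicates 1, 2 and 3, against 15.3, 24.5 and 51.5 CPM in wild-type replicates 1, 2 and 3. The groups overlapped, since wild-type replicate 3 lay above mutant replicates 2 and 3. The log2 difference was 1.38 ± 0.54 (SE), with an unadjusted edgeR p of 0.0335. Leaving out mutant replicate 1 gave 0.72, leaving out wild-type replicate 3 gave 2.00, and the estimate stayed above 0 in every fit run. Oligodendrocyte precursor markers, summed, were also highest in mutant replicate 1 (181 CPM, against 13.8 to 77.1 CPM elsewhere). Olig1 (69.7 CPM) and Olig2 (97.3 CPM) made up most of that sum, whereas Pdgfra and Sox10 were highest in wild-type replicate 3. The interneuron sum, like Sema6a, was lowest in wild-type replicate 1, but it was highest in wild-type replicate 3. The part of these cells in the Sema6a level was not tested.

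Sema6d, a Plxna1 ligand, went the other way across the same libraries. It was at 29.0, 135 and 80.7 CPM in mutant replicates 1, 2 and 3, against 235, 75.1 and 94.3 CPM in wild-type replicates 1, 2 and 3 (−0.72 ± 0.58, SE), and the difference was −0.056 without wild-type replicate 1. The ratio of Sema6d to Sema6a counts was 0.211 in mutant replicate 1 and 15.3 in wild-type replicate 1, and between 1.61 and 3.06 in the other libraries. Sema6c, the most abundant class 6 gene, was at 181, 152 and 89.1 CPM in mutant and 150, 77.8 and 162 CPM in wild-type replicates (0.11 ± 0.34, SE). Sema6b lay between 10.3 and 24.8 CPM in mutant and 11.1 and 30.8 CPM in wild-type libraries (−0.49 ± 0.48, SE).

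Sema7a, the membrane-anchored ligand of beta1 integrins and Plxnc1, was a low-level gene. It was at 0.086, 5.34 and 1.73 CPM in mutant replicates 1, 2 and 3, against 10.3, 9.27 and 3.83 CPM in wild-type replicates 1, 2 and 3. Mutant replicate 2 lay above wild-type replicate 3, so the groups overlapped, and mutant replicate 1 held 5 counts. The log2 difference was −1.71 ± 1.20 (SE), and it lay between −3.10 and −1.14 with libraries left out.

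The neuropilins, co-receptors of the class 3 ligands, differed from each other in their spread. Nrp1 was at 87.9, 288 and 203 CPM in mutant replicates 1, 2 and 3, against 586, 240 and 167 CPM in wild-type replicates 1, 2 and 3. Wild-type replicate 1 was more than 2-fold above every other library, and the log2 difference of −0.78 ± 0.53 (SE) was −0.079 without it. Nrp2 was at 82.9, 57.8 and 23.2 CPM in mutant and 48.0, 37.6 and 58.7 CPM in wild-type replicates (0.18 ± 0.42, SE). The ratio of Nrp1 to Nrp2 counts was 1.06, 4.99 and 8.74 in mutant and 12.2, 6.38 and 2.85 in wild-type replicates 1, 2 and 3, and the groups overlapped. Nrp1 is also made by blood vessel cells. Wild-type replicate 1 had an endothelial marker sum of 1.72 CPM, and the part of those cells in the Nrp1 level was not tested.

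Of the plexin A receptors, which pair with neuropilins and also bind class 6 ligands, 2 had fitted differences above and 2 below 0. Plxna2 was at 136, 488 and 329 CPM in mutant replicates 1, 2 and 3, against 536, 328 and 244 CPM in wild-type replicates 1, 2 and 3 (−0.22 ± 0.45, SE). Plxna4 was at 96.2, 232 and 133 CPM in mutant and 416, 164 and 162 CPM in wild-type replicates (−0.69 ± 0.44, SE). Both were lowest in mutant replicate 1 and highest in wild-type replicate 1, as Nrp1 was. Without wild-type replicate 1 the difference was −0.087 for Plxna4 and 0.15 for Plxna2. Plxna1 lay between 89.2 and 255 CPM in mutant and 92.2 and 130 CPM in wild-type libraries (0.55 ± 0.35, SE), with its highest level in mutant replicate 1. Plxna3 lay between 93.8 and 171 CPM in mutant and 107 and 166 CPM in wild-type libraries (0.04 ± 0.26, SE). Antisense genes share 970 exon bases with Plxna1, 110 with Plxna4 and 257 with Plxnb1, and without strand their reads cannot be told apart from those of the plexins. The same limit holds for Sema4c, which shares 334 exon bases with D430040D24Rik on the opposite strand.

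Both tested plexin B receptors, which bind class 4 ligands and can pair with receptor tyrosine kinases, had higher fitted levels in mutant PRPF6 cells. Plxnb1 was at 249, 192 and 132 CPM in mutant replicates 1, 2 and 3, against 172, 98.1 and 118 CPM in wild-type replicates 1, 2 and 3. Wild-type replicate 1 lay above mutant replicate 3, so the groups overlapped. The log2 difference was 0.56 ± 0.28 (SE), with an unadjusted edgeR p of 0.0815. Plxnb2, a receptor of neural progenitors, was at 310, 398 and 177 CPM in mutant and 241, 211 and 185 CPM in wild-type replicates. Its log2 difference was 0.47 ± 0.28 (SE), with an unadjusted edgeR p of 0.126. Mutant replicate 3 was the lowest of the 6 libraries for Plxnb2. Without it, Plxna1, Plxnb1 and Plxnb2 joined Sema5b and Sema6a at an unadjusted p under 0.05, which made 5 members in all, in a fit where 3.50% of all genes had such a p. Without mutant replicate 1 the difference fell to 0.32 for Plxnb1 and 0.060 for Plxna1. It fell to 0.20 for Plxnb2 without mutant replicate 2. Without wild-type replicate 1 it was 0.82 for Plxnb1, 0.57 for Plxnb2 and 0.54 for Plxna1. In that fit Plxnb1 had an unadjusted edgeR p under 0.05, as 2.68% of all genes did.

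Plxnc1 and Plxnd1, the single members of their classes, had wide ranges. Plxnc1, the receptor of Sema7a, was at 47.7, 34.6 and 31.9 CPM in mutant replicates 1, 2 and 3, against 7.82, 53.1 and 34.3 CPM in wild-type replicates 1, 2 and 3 (0.26 ± 0.58, SE). Plxnd1, the receptor of Sema3e and a gene of blood vessels, was at 0.069, 20.0 and 2.74 CPM in mutant and 5.67, 12.9 and 19.3 CPM in wild-type replicates (−0.73 ± 1.35, SE). Its highest values were in mutant replicate 2 and wild-type replicate 3, the libraries with endothelial marker sums of 29.4 and 79.6 CPM. Wild-type replicate 2 held 12.9 CPM of Plxnd1 with an endothelial sum of 0.705 CPM. The part of endothelial RNA in the Plxnd1 level was not tested.

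The members varied widely between libraries. The highest library exceeded the lowest by a median of 3.95-fold over 29 members, against 2.20-fold over all tested genes, and by more than 4-fold in 14 members (48.3%), against 29.7% of genes, where a gene without a count in a library was placed above 4-fold. Mutant replicate 1 was the highest library for 10 members and the lowest for 14, together 82.8% of the members, against 48.8% of all genes. Wild-type replicate 3 was at an extreme for 2 members (6.90%), against 26.7% of all genes.

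Within that spread, 7 members were lowest in mutant replicate 1 and highest in wild-type replicate 1: Sema5a, Sema6b, Sema6d, Sema7a, Plxna2, Plxna4 and Nrp1. This is 24.1% of the members, against 7.65% of all tested genes. The opposite order held in 4 members, Sema3b, Sema3d, Sema4b and Sema6a (13.8%, against 7.07%). The summed neuron markers had the first of these orders, although Tubb3, Mapt, Dcx and Snap25 each departed from it. These are counts over genes of the same 6 libraries, and the part of cell composition in them was not tested.

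**Figure D3:**
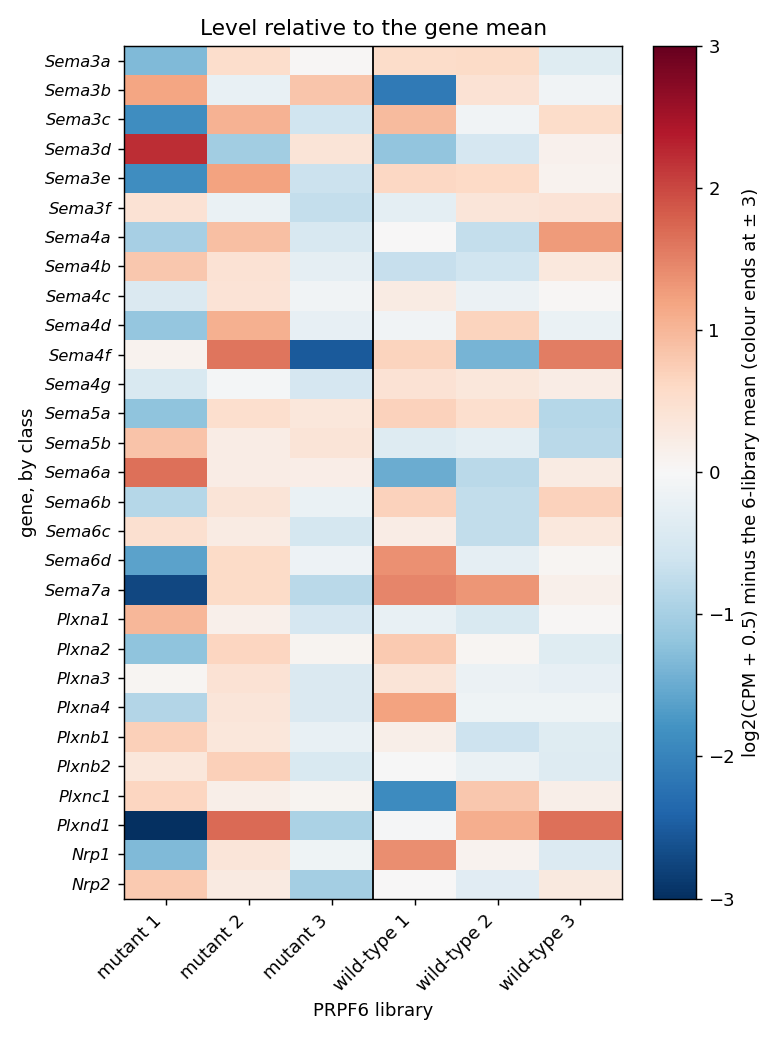
Each tested gene (rows, by class) in each library (columns, mutant PRPF6 left), as log2(CPM + 0.5) minus the gene's mean over the 6 libraries. Mutant replicate 1 holds many of the strongest colours, blue in Sema7a and Plxnd1 and red in Sema3d and Sema6a. Sema6d and Nrp1 are a paler blue there, and wild-type replicate 1 shows the opposite colour in Sema6a, Sema6d and Nrp1.

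**Figure D4:**
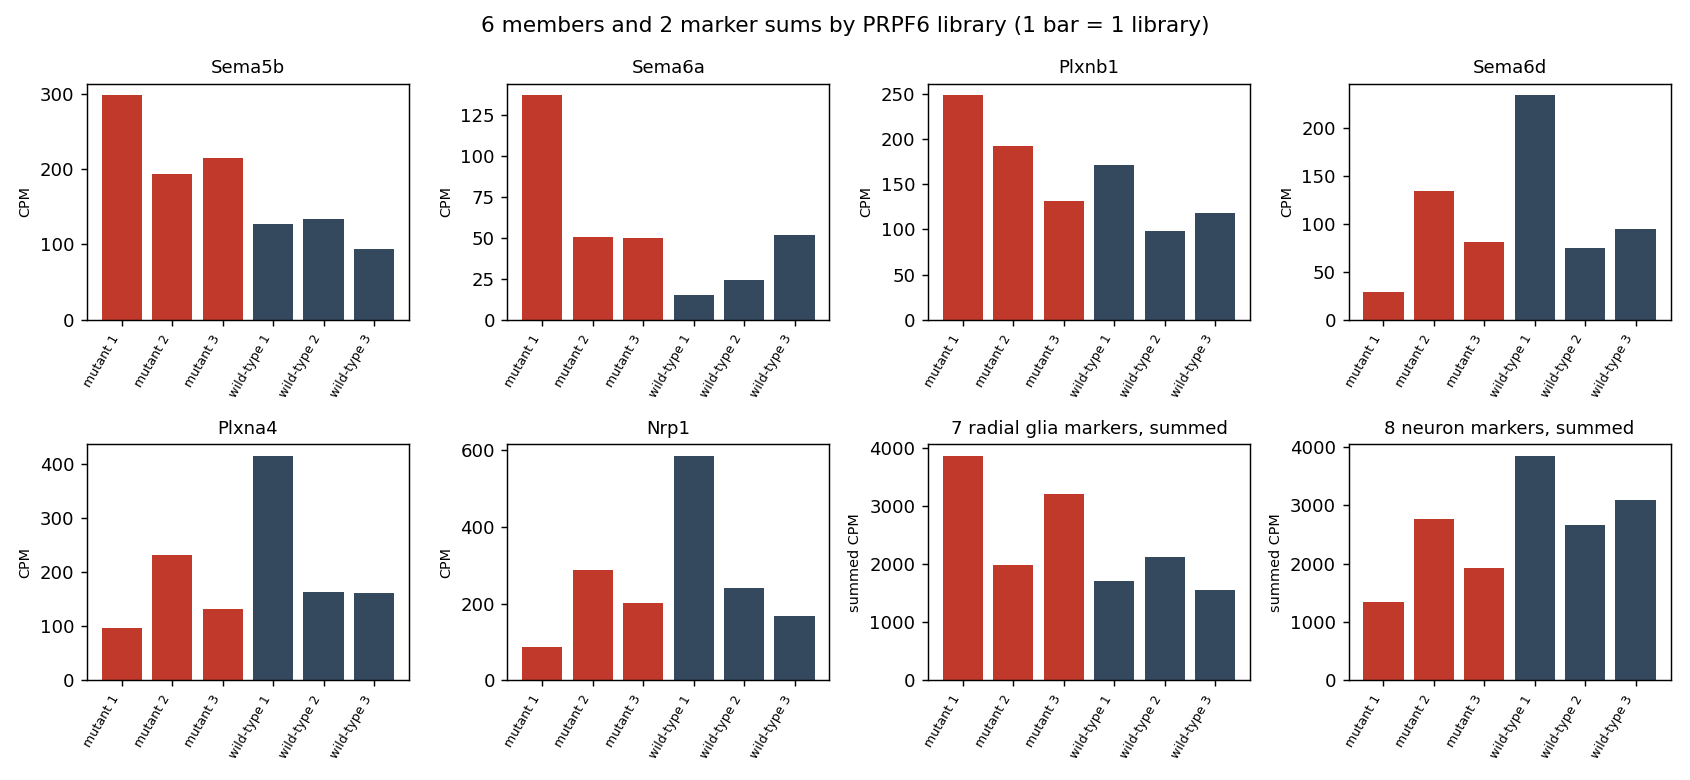
CPM of 6 members and summed CPM of 7 radial glia and 8 neuron markers, with 1 bar per library and mutant PRPF6 libraries in red on the left. Sema5b bars are higher in all mutant libraries (193 to 298 CPM), while Sema6d, Plxna4 and Nrp1 peak in wild-type replicate 1, where the neuron marker sum is also highest (3851 CPM).

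Summed over classes, the groups overlapped everywhere except for class 5. That class holds 2 genes, and Sema5b, whose own groups did not overlap, made up 43.0% to 87.0% of its sum by library. The groups overlapped in Sema5a. Class 5 counts summed to 343, 339 and 345 CPM in mutant replicates 1, 2 and 3, against 294, 281 and 150 CPM in wild-type replicates 1, 2 and 3. Class 6 sums averaged 319 ± 71.5 CPM in mutant and 319 ± 122 CPM in wild-type libraries (SD, n = 3 each). Plexin A sums averaged 765 ± 231 CPM in mutant and 856 ± 323 CPM in wild-type libraries, and plexin B sums 486 ± 155 CPM in mutant and 342 ± 61.8 CPM in wild-type libraries (SD, n = 3 each). All 30 members together reached 2422 ± 563 CPM in mutant and 2435 ± 739 CPM in wild-type libraries (SD, n = 3 each).

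Of 40 genes listed for the rest of the pathway, 38 were tested, 0 passed edgeR's test, and 19 fitted differences were above and 19 below 0 (median 0.018). DESeq2 and limma-voom called 0 of them too. In 2 of the 38 the unadjusted edgeR p was under 0.05, as it was in 3.38% of all tested genes. Erbb2, a receptor tyrosine kinase that associates with plexin B receptors, was at 26.2, 41.3 and 41.6 CPM in mutant replicates 1, 2 and 3, against 15.8, 18.4 and 19.1 CPM in wild-type replicates 1, 2 and 3. The groups did not overlap, and the log2 difference was 1.03 ± 0.28 (SE) with an unadjusted edgeR p of 0.0057. Dpysl4, a collapsin response mediator protein that relays semaphorin signals to microtubules, was at 338, 122 and 154 CPM in mutant and 66.8, 89.4 and 135 CPM in wild-type replicates. Its log2 difference was 1.07 ± 0.41 (SE), with an unadjusted edgeR p of 0.0301, and its groups overlapped, as mutant replicate 2 lay below wild-type replicate 3. The groups also did not overlap in Dpysl2 (−0.17 ± 0.13, SE) and Mical3 (−0.79 ± 0.42, SE), both with mutant libraries below. Non-overlapping groups occurred in 9.14% of all tested genes.

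The adhesion molecule L1cam, a partner of Nrp1 in Sema3a responses, was lowest in mutant replicate 1 and highest in wild-type replicate 1, as Nrp1 was. It was at 58.3, 210 and 71.4 CPM in mutant replicates 1, 2 and 3, against 250, 159 and 159 CPM in wild-type replicates 1, 2 and 3 (−0.74 ± 0.47, SE). Other listed co-receptors had other orders: Nrcam was highest in mutant replicate 1 (0.43 ± 0.22, SE), and Chl1 and Cntn2 were lowest in mutant replicate 3. Kdr, a vascular receptor that some semaphorin complexes include, reached 15.5 CPM in mutant replicate 2 and 39.9 CPM in wild-type replicate 3, the libraries with the most endothelial marker RNA, against at most 4.05 CPM elsewhere. The actin-severing effector Cfl1 differed by −0.03 ± 0.15 (log2, SE).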

How the data were processed

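RNA was measured in 3 mutant and 3 wild-type PRPF6 libraries, grouped by their titles, from cDNA amplified with a SMART-Seq kit, which does not mark strand. The authors deposited expected counts per gene, made with RSEM on mm10, per the submitters' processing notes. Which annotation, aligner and strand setting they used is not given in the sources used here. RSEM divides ambiguous reads between genes, and 8.15% to 9.15% of a library's values were not whole. Amplified reads without molecular identifiers are not independent molecules. Whether libraries came from separate animals is not given, so p-values measure the spread between libraries alone, part of which may be technical.

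Values were rounded, filtered with filterByExpr (14451 of 24041 genes kept) and scaled with TMM factors (0.972 to 1.02). Total counts were 45115122 to 60600617 per library. CPM used those totals times the factors, so 1 count was worth 0.0164 to 0.0228 CPM. The whole table was tested with edgeR 4.0.16 in R 4.3.3 (quasi-likelihood F-test with robust estimation, two-sided, no covariates, Benjamini-Hochberg adjustment over all tested genes, threshold 0.05), after a check on simulated data. That check required changed genes to be recovered only at a spread below that of these data, so it does not show the test's power here. The spread here, as edgeR's common biological coefficient of variation, was 0.663. Standard errors are the absolute log2 difference divided by the square root of F. Alternatives were other scaling factors and filters, DESeq2 1.42.0, limma-voom (limma 3.58.1), no robust estimation, a replicate block, and each library left out. A fit without mutant replicate 1 and wild-type replicate 3, and DESeq2 without the filter, were chosen after seeing the data.

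The members, gene lists and naming rule were chosen with earlier results of these data known. Every member was named. Values in each library were given for members at an unadjusted p under 0.05, members whose groups did not overlap, and the 2 most abundant members of each class by mean CPM, and for Sema3d after its values were seen. Pathway genes were named at an unadjusted p under 0.05, and L1cam, Nrcam, Chl1, Cntn2, Kdr, Cfl1, Dpysl2 and Mical3 after their values were seen. Gene positions and exon lengths come from GENCODE M21 on GRCm38, matched by symbol. Promoters come from RefSeq on GRCm38.p6.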

Additional observations from a re-analysis of the deposited data

How the results depend on the processing

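DESeq2 called 6 genes after the low-count filter, 1 of them a member (Sema5b), and 12 without the filter, again with 1 member. It left 8695 of 14451 genes without an adjusted p after the filter, and 2933 of 17679 without the filter. Other scaling factors, filters, limma-voom and no robust estimation called 0 genes and left every member's sign as it was. With libraries left out, 1 to 5 members had an unadjusted p under 0.05 (Sema5b in each fit), and the members' median lay between −0.51 and 0.088. The count was 1 without wild-type replicate 2 or mutant replicate 1 (2.94% and 2.53% of all genes in those fits), 4 without mutant replicate 2 (6.86%) and 5 without mutant replicate 3 (3.50%). Of the 29 members 17 kept their sign in all alternatives. The other 12 turned with 1 library or the pair left out, and their ranges were −0.25 to 0.55 for Nrp2, −0.67 to 0.15 for Plxna2, −0.19 to 0.26 for Plxna3, −0.20 to 0.85 for Plxnc1, −3.17 to 0.30 for Plxnd1, −2.11 to 0.10 for Sema3e, −1.21 to 0.72 for Sema4a, −0.31 to 0.13 for Sema4c, −0.82 to 0.39 for Sema4d, −1.57 to 0.80 for Sema4f, −0.56 to 0.15 for Sema5a and −0.15 to 0.36 for Sema6c. The cause was not tested. A fit that leaves 2 libraries in a group still takes its spread from all genes.

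With the replicate number as a block, 0 genes passed, 2 members had an unadjusted p under 0.05 (Sema5b and Plxnb1, against 2.12% of all genes) and the median was −0.24. Deviations of same-numbered libraries from their group means had correlations over 14451 genes of −0.013, 0.036 and −0.31 for replicates 1, 2 and 3. Deviations within a group of 3 depend on each other, so these values cannot decide whether same-numbered libraries were paired. The submitters' own sample numbers are the same in both groups, and whether they mark shared experiments is not given. Some members were near or below the floor in single libraries. Sema3b and Sema3d each held 2 counts in wild-type replicate 1. Sema3d also held 5 counts in mutant replicate 2, and Sema4f 9 in mutant replicate 3. Plxnd1 and Sema7a held 4 and 5 counts in mutant replicate 1. That library had 57475218 counts in total. Mutant replicate 2, with 48787926, held 995 counts of Plxnd1.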
